A study of Mus musculus with 19 samples.

Results

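Smooth muscle contractile genes were followed in the endometrium of mice in estrus and of mice 3.5 days post-coitum (pc). The set holds 10 genes chosen by name: Acta2, Actg2, Myh11, Tagln, Cnn1, Lmod1, Des, Synpo2, Mylk and Oxtr. All 10 were found among the 49089 genes of the count table by matching gene identifiers to mouse GENCODE symbols, and all 10 passed the filter on low counts (at least 3 CPM, counts scaled to a common library size, in at least 3 of the 19 libraries), which left 17222 genes tested. The set serves as a gauge of myometrium, the muscle wall of the uterus, in tissue that was scraped off that wall.

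Smooth muscle shortens when myosin filaments pull on actin filaments that are anchored at dense bodies and tied together by desmin. Calcium entry activates myosin light chain kinase, which phosphorylates the light chain and starts the cycle, and hormones such as oxytocin raise calcium through receptors on the cell surface. In the uterus these genes mark the myometrium, but the walls of arteries and pericytes carry part of the same programme, and desmin is also made by stromal cells of the mouse uterus as they decidualize.

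Endometrial RNA of wild-type C57Bl/6 females was sequenced in 19 libraries, each a pooled sample. The 3 CONT libraries, numbered 1, 2 and 4, came from untreated virgin females in estrus, collected around ovulation. For the 4 INT libraries, females aged 8 to 14 weeks had mated with intact BALB/c males and were collected at day 3.5 pc. For SVX, SVX_VAS and VAS, of 4 libraries each and collected at the same day, the BALB/c males had been vasectomised, were seminal vesicle-deficient, or both. The column names and the sample titles of these 3 groups name different surgeries, so they are called here by their column names and no surgery is assigned to them. The endometrium had been scraped from the opened uterus with a razor blade and the myometrium discarded. The study calls them biological replicates, how many females went into a pool is not given in the sources used here, and the p-values measure the spread between these samples.

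Totals ran from 12661266 to 31781270 counts per library, and a count of 0 would allow up to 0.108 to 0.236 CPM, a limit for counting error only. The lowest count of any member that a result turns on was 11, for Oxtr in SVX replicate 2. Levels are CPM with the trimmed mean (TMM) scaling of edgeR. VAS replicates 2 and 3 stood apart from the other 17 libraries. Genes with exons shorter than 1 kb in total took 1.12% and 1.14% of their counts, against 2.51% to 2.85% elsewhere, and Actb, the cytoskeletal actin, was at 146 and 154 CPM against 1387 to 2130 CPM. Without them, in VAS against CONT, the logFC was 0.00 for Acta2, -1.40 for Actg2, 0.50 for Myh11, -0.71 for Tagln, -0.79 for Cnn1, 0.36 for Lmod1 and -1.28 for Oxtr, none of them called with edgeR, and 0.80 for Des, 1.48 for Synpo2 and 1.2 for Mylk, all 3 called. Markers of the expected tissue were present in each library. Epcam, a surface protein of epithelium, was at 64.8 CPM or more, and Pdgfra, a receptor of stromal cells, at 170.5 CPM or more. Of the 12 striated muscle markers, Ckm, Myog and Actc1 were at most 0.527 CPM, while Ttn was at 20.3 ± 0.529 CPM (SD, n = 3) in CONT and 63.4 ± 6.77 CPM (SD, n = 4) in SVX, and the list summed to 32.1 to 102 CPM. CONT differs from the mated groups in mating, in the days since ovulation and, by the study's methods, in the hour of collection. These cannot be told apart here.

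Per kilobase of exon, Acta2 had the highest mean level of the 10 genes in each of the 5 groups, from 56.0 ± 33.9 CPM per kb (SD, n = 4) in VAS to 114 ± 57.5 CPM per kb (SD, n = 4) in INT. At estrus, Tagln was next at 55.6 ± 17.5 CPM per kb (SD, n = 3), and Lmod1 was lowest at 1.08 CPM per kb. Lmod1 was also lowest per kb in INT, SVX_VAS and VAS, while in SVX the lowest was Oxtr, at 0.944 CPM per kb. The order in CONT was the same when levels were divided by the longest transcript, whereas in VAS Tagln went from rank 3 to rank 5.

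Of the filament genes, Acta2 encodes smooth muscle alpha actin and lies at chr19:34241090-34255336 on the minus strand (GRCm38). Its level was 91.3, 102 and 185 CPM in CONT replicates 1, 2 and 4 and 348, 184, 108 and 170 CPM in INT replicates 1 to 4. Levels were 120, 193, 208 and 186 CPM in SVX, 178, 192, 216 and 161 CPM in SVX_VAS and 62.9, 66.3, 80.0 and 190 CPM in VAS. Each group overlapped CONT, and VAS replicate 4 was far above the other 3 VAS libraries. Among those 3 were replicates 2 and 3, the libraries that stood apart. By edgeR's quasi-likelihood test, the log2 fold change (logFC) against CONT was 0.68 ± 0.41 (SE) in INT, 0.49 ± 0.41 in SVX, 0.57 ± 0.41 in SVX_VAS and -0.34 ± 0.40 in VAS, and no false discovery rate (FDR) was under 0.185. In this bulk tissue, a difference in the number of smooth muscle cells and one in RNA per cell cannot be told apart.

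The upstream sequence of Acta2 is shown because smooth muscle genes are known to be switched on by serum response factor and myocardin at the CArG box, a run of 10 bases that opens with CC, closes with GG and holds 6 A or T bases between them. Sequences of 7 of the 10 genes were matched in RefSeq (GRCm38.p6), and the 250 bases before the start were searched on both strands, on which the box reads alike. Actg2, Myh11 and Tagln had no matched sequence and were not searched. For Mylk, Oxtr and Lmod1 the matched start lies inside the span of the gene, so their windows overlap it. The window of Mylk lies wholly inside and is that of an internal start. The exact box was found in 482 of 32851 windows (1.47%) and in 0 of the 7 members. With 1 of the 6 inner bases changed to G or C it was found in 7.24% of windows and in 1 member, Acta2, at 84 and 34 bases before the start (first base at -84 and -34). Myl9, the light chain gene whose level was most like that of the members, held an exact box at -161 and a changed one at -99. A match describes letters in this window and is no measure of binding. The capitals mark the boxes, in Acta2 at chr19:34255374-34255623 (minus strand) and in Myl9 at chr2:156775214-156775463 (plus strand), each written 5′ to 3′.
Acta2: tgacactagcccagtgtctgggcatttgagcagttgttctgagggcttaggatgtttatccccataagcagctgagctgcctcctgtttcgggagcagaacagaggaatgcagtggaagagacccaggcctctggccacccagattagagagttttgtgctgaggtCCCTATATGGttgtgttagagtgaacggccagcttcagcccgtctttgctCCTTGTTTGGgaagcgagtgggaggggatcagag
Myl9: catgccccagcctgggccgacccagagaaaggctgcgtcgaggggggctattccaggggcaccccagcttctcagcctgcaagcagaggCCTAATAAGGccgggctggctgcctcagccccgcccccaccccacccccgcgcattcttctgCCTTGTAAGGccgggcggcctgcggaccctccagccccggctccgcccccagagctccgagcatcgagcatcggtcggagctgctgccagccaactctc

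Actg2, smooth muscle gamma actin (chr6:83512905-83536265, minus strand), was at 28.3, 35.2 and 60.4 CPM in CONT and 90.6, 25.3, 8.21 and 16.5 CPM in INT. It was at 12.6, 29.0, 29.0 and 22.9 CPM in SVX, 23.6, 35.9, 39.8 and 28.0 CPM in SVX_VAS and 5.13, 21.3, 33.9 and 26.2 CPM in VAS. The range of INT alone held all 3 CONT libraries. The logFC against CONT was -0.23 ± 0.65 (SE) in INT, -0.82 ± 0.65 in SVX, -0.37 ± 0.65 in SVX_VAS and -0.93 ± 0.65 in VAS, with edgeR FDRs of 0.232 to 0.81. The logFC in INT was -1.31 without INT replicate 1 and 0.14 without CONT replicate 4, neither of them called.

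Myh11, the smooth muscle myosin heavy chain (chr16:14194527-14291408, minus strand), was at 59.98, 72.1 and 221 CPM in CONT and 439, 189, 86.5 and 180 CPM in INT. Its level was 103, 195, 239 and 220 CPM in SVX, 166, 242, 245 and 141 CPM in SVX_VAS and 61.7, 138, 223 and 269 CPM in VAS. CONT replicate 4 was far above the other 2 estrus libraries and inside the range of each mated group. The logFC against CONT was between 0.56 ± 0.57 (SE) in VAS and 0.93 ± 0.57 in INT, and edgeR FDRs were 0.199 to 0.407. Without CONT replicate 4 the logFC was 1.75 in INT (edgeR FDR 0.0328), 1.52 in SVX (FDR 0.049) and 1.58 in SVX_VAS (FDR 0.0439), which passed both cutoffs, and 1.39 in VAS (FDR 0.0681), which did not.

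The other 3 filament genes also overlapped between CONT and the mated groups. Tagln, transgelin, an actin-binding protein of smooth muscle (chr9:45929628-45936058), was at 64.6 to 119 CPM in CONT, 35.5 to 165 CPM in INT, 55.5 to 89.8 CPM in SVX, 69.3 to 101 CPM in SVX_VAS and 30.7 to 76.9 CPM in VAS. Cnn1, calponin 1, which restrains actin-myosin cycling (chr9:22099281-22109630), was at 13.9 to 35.3 CPM in CONT, 5.99 to 65.4 CPM in INT and 5.75 to 29.2 CPM in VAS. Lmod1, leiomodin 1, which nucleates actin filaments (chr1:135324807-135368065), was at 2.32 to 6.90 CPM in CONT and 2.54 to 15.5 CPM in VAS. For each of these genes CONT overlapped each mated group, and none was called with edgeR. The lowest FDR was that of Tagln in VAS, at 0.0821 with a logFC of -0.86 ± 0.41 (SE), and the logFC of Lmod1 in VAS was 0.97 ± 0.54 (FDR 0.137). Tagln passed in VAS without VAS replicate 4 (logFC -1.16, FDR 0.0269), as did Acta2 (logFC -0.85, FDR 0.0483), and Lmod1 passed in VAS without VAS replicate 1 (logFC 1.27, FDR 0.0337). These runs kept VAS replicates 2 and 3, the libraries that stood apart. Without replicates 2 and 3 the logFC was -0.71 for Tagln, 0.00 for Acta2 and 0.36 for Lmod1, none of them called.

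**Figure D1:**
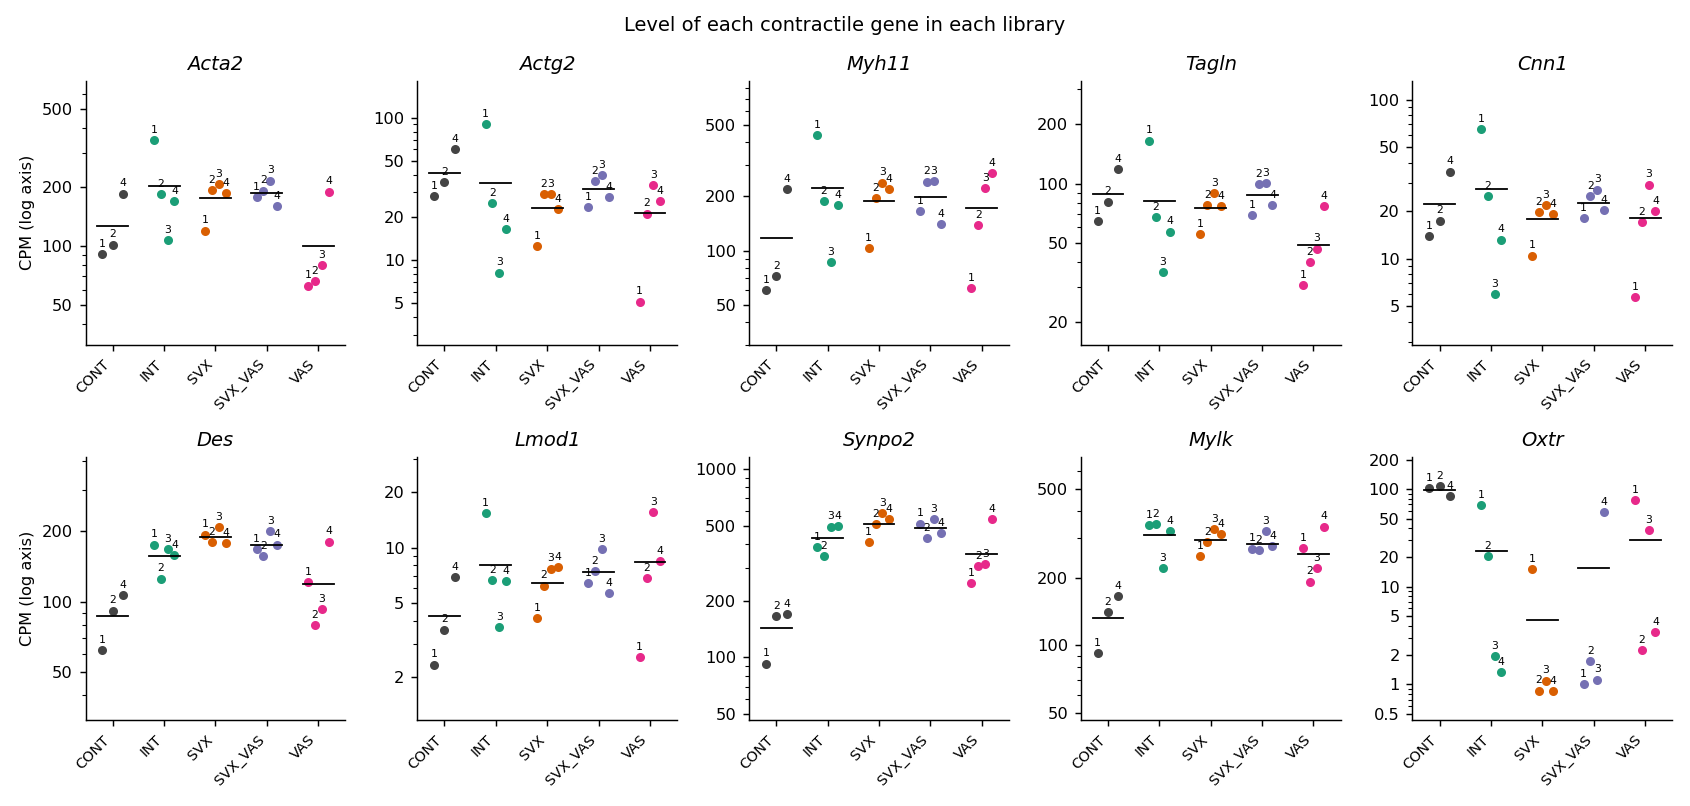
CPM of each of the 10 genes on log axes, by group. Points are libraries, marked with their replicate number, and bars are group means. Synpo2 and Mylk were higher in each mated library than in any CONT library, Oxtr was lower in each, and the filament genes of the upper row overlapped.

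The genes of the filament anchors came next. Synpo2, synaptopodin 2, which bundles actin at Z-discs and dense bodies (chr3:123076519-123236149, minus strand), was at 92.7, 165 and 169 CPM in CONT and 384, 346, 495 and 497 CPM in INT. It was at 411, 512, 582 and 545 CPM in SVX, 514, 429, 543 and 457 CPM in SVX_VAS and 247, 305, 314 and 545 CPM in VAS. The lowest mated library, VAS replicate 1, was above the highest CONT library. Synpo2 rose with a logFC of 1.6 ± 0.26 (SE) in INT (edgeR FDR 0.000143), 1.85 ± 0.27 in SVX (FDR 2.72e-05), 1.77 ± 0.26 in SVX_VAS (FDR 5.02e-05) and 1.31 ± 0.26 in VAS (FDR 0.000512). These are rises of 3.02-, 3.60-, 3.41- and 2.48-fold.

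Des, desmin (chr1:75360329-75368579), was at 62.4, 91.8 and 107 CPM in CONT and 176, 126, 168 and 159 CPM in INT. It was at 194, 180, 208 and 179 CPM in SVX, 168, 157, 201 and 176 CPM in SVX_VAS and 121, 79.6, 93.3 and 181 CPM in VAS. INT, SVX and SVX_VAS lay wholly above CONT, while VAS replicates 2 and 3 fell within its range. Des rose with a logFC of 0.85 ± 0.23 (SE) in INT (edgeR FDR 0.0064), 1.13 ± 0.23 in SVX (FDR 0.000656) and 1.01 ± 0.23 in SVX_VAS (FDR 0.00177). In VAS the logFC was 0.45 ± 0.23 (FDR 0.106), and without VAS replicates 2 and 3 it was 0.80 (FDR 0.00544). A predicted gene on the opposite strand, Gm15179, shares exon sequence with Des, as Pcsk7 does with Tagln, and the strand setting of the counting is not given in the sources used here.

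Mylk, myosin light chain kinase (chr16:34745210-35002420), was at 92.5, 141 and 166 CPM in CONT and 345, 348, 222 and 325 CPM in INT. It was at 250, 290, 329 and 315 CPM in SVX, 270, 266, 322 and 277 CPM in SVX_VAS and 273, 193, 221 and 339 CPM in VAS. No mated library reached down to the highest CONT library. Mylk rose with a logFC of 1.22 ± 0.22 (SE) in INT (edgeR FDR 0.00029), 1.15 ± 0.22 in SVX (FDR 0.0003), 1.09 ± 0.22 in SVX_VAS (FDR 0.00055) and 0.95 ± 0.22 in VAS (FDR 0.00155). Synpo2 and Mylk were called under each alternative scaling, filter, tool and left-out library run. The 16 mated libraries covered a 1.80-fold range for Mylk and a 2.35-fold range for Synpo2, against 17.7-fold for Actg2 and 11.4-fold for Cnn1.

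**Figure D2:**
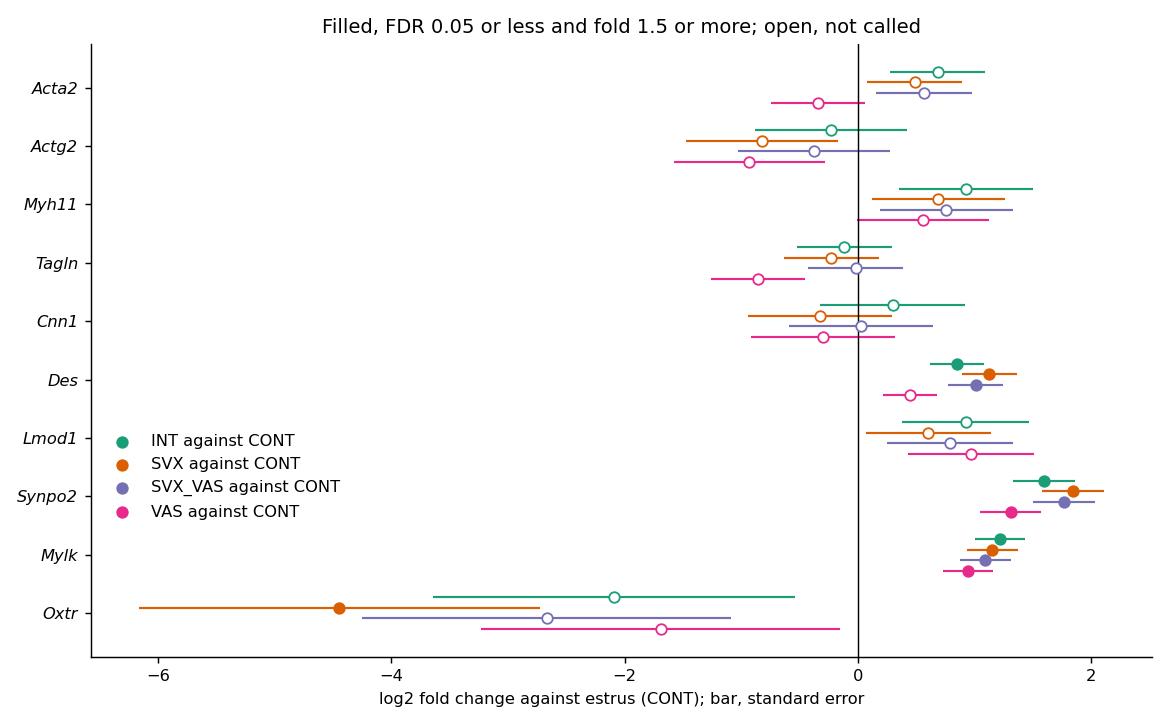
LogFC of each gene against CONT (horizontal axis, log2), with its standard error, for INT, SVX, SVX_VAS and VAS from top to bottom. Filled points had an edgeR FDR of 0.05 or less and a fold change of 1.5 or more; Synpo2 and Mylk were filled in all 4 comparisons, and the largest change was that of Oxtr in SVX at -4.45.

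Oxtr, the oxytocin receptor (chr6:112473683-112489943, minus strand), moved the other way and in another set of libraries. It was at 102, 107 and 85.1 CPM in CONT and 68.4, 20.8, 1.94 and 1.33 CPM in INT. It was at 15.3, 0.865, 1.10 and 0.860 CPM in SVX, 1.01, 1.72, 1.12 and 58.6 CPM in SVX_VAS and 77.6, 2.24, 38.0 and 3.46 CPM in VAS. Each of the 16 mated libraries lay below each CONT library, but they ran over a 90.3-fold range with a median of 2.09 CPM. The 6 libraries above 15 CPM were INT replicates 1 and 2, SVX replicate 1, SVX_VAS replicate 4 and VAS replicates 1 and 3, and the other 10 were at 3.46 CPM or below.

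Only in SVX was Oxtr called, with a logFC of -4.45 ± 1.72 (SE) and an edgeR FDR of 0.0361. The logFC was -2.09 ± 1.55 in INT (FDR 0.289), -2.67 ± 1.58 in SVX_VAS (FDR 0.169) and -1.69 ± 1.54 in VAS (FDR 0.356), and whether the fall differed between these groups was not tested. The call in SVX was lost when any 1 library other than SVX replicate 1 was left out of the 2 groups (edgeR FDR 0.053 to 0.0868), with the logFC at -4.10 to -4.54, and under limma-voom (logFC -5.69, FDR 0.0509). Under limma-voom Oxtr was instead called in INT (logFC -3.72, FDR 0.0148), SVX_VAS (logFC -5.19, FDR 0.011) and VAS (logFC -2.94, FDR 0.0161). Without SVX_VAS replicate 4 the logFC in SVX_VAS was -6.25 (edgeR FDR 0.00871).

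In counts of calls, 3 of the 10 genes were called in INT against CONT (Synpo2, Mylk and Des, all higher), where 33.6% of the 17222 genes tested were called and 20.9% were called higher. In 4 of the 10 the libraries did not overlap, against 62.3% of all genes. In SVX against CONT, 4 were called, against 41.5% of all genes; these were the same 3 genes higher (23.1% of all genes) and Oxtr lower (18.4%). In SVX, 4 did not overlap, against 70.9%. In SVX_VAS against CONT, 3 were called (38.5% of all genes), all higher (22.1%), and 4 did not overlap (67.5%). In VAS against CONT, 2 were called (40.4% of all genes), Synpo2 and Mylk, both higher (23.2%), and 3 did not overlap (55.0%). These shares are near or below those of all genes, so the counts say nothing particular about the contractile genes. The median logFC of the 10 genes was 0.77 in INT, 0.55 in SVX, 0.66 in SVX_VAS and 0.07 in VAS, where that of all genes was -0.01, -0.01, -0.02 and -0.07. All 4 comparisons share the same 3 CONT libraries.

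Against INT, a comparison that asks whether the males' surgery made a difference, 0 of the 10 genes were called in SVX, SVX_VAS or VAS, as were 0.0% of all genes by edgeR in each comparison. At an unadjusted p of 0.05 or less, 0, 0 and 1 of the 10 genes passed, beside 4.35%, 1.97% and 10.6% of all genes. DESeq2 called 3, 2 and 0 genes and limma-voom 0, 0 and 1661 genes, with 0 of the 10 among them. Over all genes, the edgeR count in VAS rested on single libraries: it was 574 without VAS replicate 1 and 133 without VAS replicate 4. Without VAS replicates 2 and 3 it was 0, and 0 of the 10 genes were called. Des in SVX was the only one of the 10 whose libraries did not overlap INT (2.6% of all genes, against 1.75% in SVX_VAS and 1.23% in VAS, where 0 of the 10 were apart), with a logFC of 0.28 ± 0.21 (SE) and an edgeR FDR of 1.0. The 3 comparisons share the 4 INT libraries.

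The intervals of these differences were narrow for Synpo2 and Mylk and wide for Oxtr. Those of Des and of the filament genes are not listed here, so changes in these genes could also have gone undetected. For Mylk the logFC plus or minus 2 SE ran from -0.46 to 0.32 in SVX, -0.52 to 0.27 in SVX_VAS and -0.66 to 0.12 in VAS. For Synpo2 it ran from -0.21 to 0.71, -0.29 to 0.64 and -0.75 to 0.18 in the same order. For Oxtr it ran from -5.48 to 0.77, -3.49 to 2.33 and -2.48 to 3.28, so that changes of several fold in either direction would have gone undetected in SVX_VAS and VAS. The gene at an unadjusted p below 0.05 was Acta2 in VAS, with a logFC of -1.02 ± 0.38 (SE) and an edgeR FDR of 0.452. Without VAS replicate 4 the logFC was -1.54 (FDR 0.0446), the only call among the 10 genes against INT, and without INT replicate 1 it was -0.63. The run without VAS replicate 4 kept VAS replicates 2 and 3, the libraries that stood apart.

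Summed over the 10 genes, the level was 860.1 ± 274.7 CPM (SD, n = 3) in CONT, 1498 ± 417 CPM (SD, n = 4) in INT, 1492 ± 228 CPM (SD, n = 4) in SVX, 1494 ± 143 CPM (SD, n = 4) in SVX_VAS and 1128 ± 368 CPM (SD, n = 4) in VAS. CONT replicate 4, at 1154 CPM, was above INT replicate 3, at 1134 CPM, and inside the range of VAS. Synpo2 and Mylk weighed most in the higher sum of INT, with means of 430.7 and 309.9 CPM against 142.4 and 133.1 CPM in CONT. Means of Myh11 (223.3 against 117.5), Acta2 (202.3 against 126.1), Des (157.2 against 87.0), Cnn1 (27.29 against 22.17) and Lmod1 (8.081 against 4.269) were also higher. Those of Tagln (81.28 against 88.11), Actg2 (35.17 against 41.29) and Oxtr (23.13 against 98.13) were lower. The log2 ratio of the sums to CONT was 0.81 in INT, 0.83 in SVX, 0.84 in SVX_VAS and 0.39 in VAS, where it was 0.545 without VAS replicates 2 and 3. Where each gene weighed alike (mean log2 CPM), the same differences were 0.14, -0.05, 0.15 and -0.17, and over the 9 genes without Oxtr, a choice made after seeing the data, they were 0.558, 0.559, 0.695 and 0.137, so that the negative signs in SVX and VAS rested on Oxtr. No test was made of the sum, since its members were chosen with results of these data known.

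Single libraries carried much of the spread. CONT replicate 4 had the highest level within CONT for 9 of the 10 genes, all but Oxtr, and CONT replicate 1 the lowest for the same 9. INT replicate 1 was highest within INT for 8 genes and INT replicate 3 was lowest for 7. SVX replicate 1 was lowest within SVX for 8 genes, SVX_VAS replicate 3 was highest within its group for 9, and VAS replicate 1 was lowest for 7.

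Within groups the 10 genes followed each other to different degrees. With group means removed, Pearson's r over the 19 libraries was 0.98 between Actg2 and Cnn1, 0.94 between Acta2 and Tagln and 0.93 between Myh11 and Lmod1. Des and Synpo2 were at 0.72 with each other, 0.59 and 0.52 with Acta2, and 0.09 and 0.23 with Actg2. Mylk was at 0.77 with Acta2, 0.70 with Des and 0.53 with Synpo2. Oxtr was near 0 with 8 of the other genes (-0.13 to 0.13) and at -0.54 with Synpo2. These values describe libraries that share depth and scaling, and no test was made of them.

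**Figure D3:**
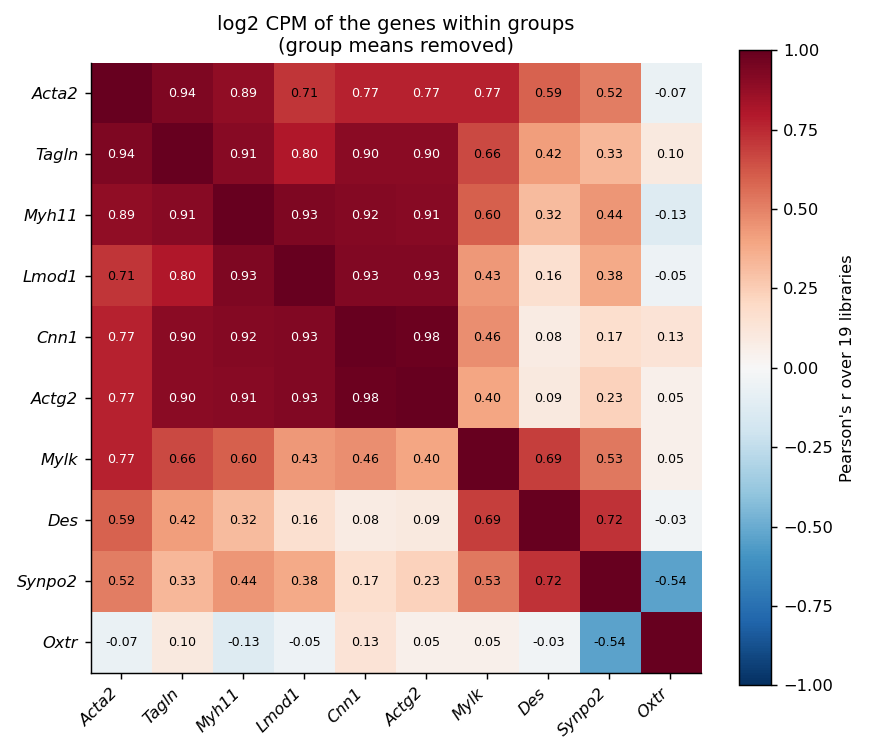
Pearson's r between the log2 CPM of each pair of the 10 genes over 19 libraries, after the mean of each group was removed; red is positive and blue negative. The 6 filament genes at the upper left had r of 0.71 to 0.98 with each other, and the row of Oxtr was near 0 except with Synpo2.

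Ratios within a library separate the filament genes from each other. The CPM ratio of Cnn1 to Actg2 was 0.492, 0.492 and 0.584 in CONT and 0.675 to 1.12 in the 16 mated libraries, so that it was higher in each mated library. The ratio of Actg2 to Acta2 was 0.310 to 0.346 in CONT, 0.0763 to 0.261 in INT, 0.105 to 0.150 in SVX and 0.132 to 0.187 in SVX_VAS. In VAS it was 0.0815 and 0.138 in replicates 1 and 4 and 0.321 and 0.423 in replicates 2 and 3. The pair of VAS libraries with few counts in short genes thus had the ratio of CONT or above. These ratios were looked at after the values were seen and were not tested.

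Close relatives outside the set moved in their own ways. Of the calponins, Cnn2 and Cnn3, both found in non-muscle cells, rose in all 4 mated groups, by a logFC of 1.03 ± 0.14 (SE) and 2.03 ± 0.36 in INT (edgeR FDR 2.82e-05 and 0.000237), while that of Cnn1 was 0.30 ± 0.62 (FDR 0.737). Tagln2, a non-muscle relative of Tagln, fell in all 4, with a logFC of -0.83 ± 0.29 in INT (FDR 0.0274). Of the other myosin heavy chains, Myh14 fell in all 4, with a logFC of -2.15 ± 0.59 in INT (FDR 0.00651), and Myh9 and Myh10 were called in 0 of them. Acta1, the skeletal actin, was at 0.958 to 10.6 CPM and was not called, Actc1 was at most 0.187 CPM, and Lmod2, Lmod3 and Tagln3 were at most 1.49 CPM. Stretches of 50 bases in the transcripts of Acta2 and Myh11 that also occur in other genes made up 0.326% and 0.34% of their stretches. How many reads came from a relative was not tested.

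Other genes of the contractile machinery came from lists, whose counts stand beside 20.9% of all genes called higher in INT and 12.7% called lower. Of 11 further filament genes, 3 rose and 1 fell in INT against CONT, namely Flna, Cnn2 and Tpm1 up and Tagln2 down, a share near that of all genes. Myl9, the regulatory light chain that the kinase acts on, had a logFC of 0.53 ± 0.30 (SE, edgeR FDR 0.168), and Tpm2, a tropomyosin, 0.56 ± 0.30 (FDR 0.142). Of 12 anchor and Z-body genes, 6 rose and 1 fell in INT. The largest changes were those of the integrin subunits Itga8 (logFC 1.54 ± 0.30, FDR 0.000596) and Itga7 (1.52 ± 0.22, FDR 4.76e-05) and of Pgm5, a protein of adhesion sites (1.5 ± 0.24, FDR 0.000121), and Pdlim7 fell (-0.88 ± 0.20, FDR 0.0017). In VAS the filament list depended on the libraries that stood apart. Its sum was 1400 and 1543 CPM in VAS replicates 2 and 3 and 2853 and 3467 CPM in replicates 1 and 4, against 2292 to 2617 CPM in CONT. The anchors summed to 740.5 and 755.4 CPM in replicates 2 and 3 and to 644.7 and 834.6 CPM in replicates 1 and 4. In VAS against CONT 1 filament gene was called higher (Cnn2) and 3 lower (Tagln2, Myl6 and Vcl), beside 23.2% and 17.2% of all genes. Without VAS replicates 2 and 3, Cnn2 and Flna were called higher and Tagln2 lower, beside 22.0% and 14.2% of all genes. The logFC of Flna was then 1.01, against 0.42 with them, and Myl6 (-0.37) and Vcl (-0.43) were under the fold cutoff. Of the anchor genes 7 were called, and 5 without VAS replicates 2 and 3, beside 40.4% and 36.2% of all genes.

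Among 10 genes that set the phosphorylation of the light chain, 4 rose and 0 fell in INT, led by Pde5a, which breaks down cyclic GMP (logFC 1.78 ± 0.23, SE, edgeR FDR 2.2e-05). Rhoa, Rock1 and Rock2, which hold the phosphatase in check, were at logFC of -0.15 to -0.32 and not called in INT. Ppp1cb, the catalytic subunit of the phosphatase, fell in SVX, SVX_VAS and VAS (logFC -0.72, -0.63 and -1.02, FDR 0.00953, 0.0213 and 0.000908), and Rhoa was called lower in VAS (-0.94 ± 0.25, FDR 0.00482). The list summed to 1115 and 1179 CPM in VAS replicates 2 and 3 and to 1462 and 1566 CPM in replicates 1 and 4; without replicates 2 and 3 the logFC in VAS was -0.62 for Ppp1cb (FDR 0.00274), still called, and -0.43 for Rhoa (FDR 0.000607), under the fold cutoff. Of 12 excitation genes, 11 were tested and 7 were called higher in INT, among them Kcnmb1, which was at 1.26 to 3.03 CPM in CONT, reached 3 CPM in 1 of the 3 CONT libraries and so passed the filter mainly through the mated ones. The list was led by Kcnma1, a calcium-activated potassium channel (2.44 ± 0.36, FDR 6.67e-05), and Ano1, a calcium-activated chloride channel (2.23 ± 0.25, FDR 6.22e-06). Kcnma1 and Pln, also called, had CONT means of 3.22 ± 1.395 and 3.30 ± 0.967 CPM (SD, n = 3), near the filter. They too passed it in part through the mated libraries. Cacna1c, the L-type calcium channel, rose as well (1.15 ± 0.10, FDR 1.66e-06). Of 10 smooth muscle transcription factors, 2 rose in each mated group, Mef2c and Nfatc4, near the share of all genes called higher, while Myocd, the coactivator of the CArG box factor, was at 1.01 to 4.85 CPM in CONT and 1.77 to 8.62 CPM in INT (logFC 0.56 ± 0.68, FDR 0.54). Srf itself had a logFC of 0.07 ± 0.08 (FDR 0.521).

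Contraction receptors other than Oxtr formed a further list. Of 10 receptor and coupling genes 6 passed the filter, and all 6 of these were called higher in INT, SVX and SVX_VAS, and 5 in VAS. Adra1a, Ptgfr and Chrm3 had CONT means under the 3 CPM of the filter and passed it only through the mated libraries, so the direction of these 3 was set by the filter and the count of 6 is no support for a change of the list. Adra1a, an alpha-1 adrenergic receptor, was at 0.649 ± 0.170 CPM (SD, n = 3) in CONT and 10.5 ± 3.71 CPM (SD, n = 4) in INT (logFC 3.98 ± 0.48, SE, edgeR FDR 1.08e-05). Ptgfr, the receptor of prostaglandin F, was at 0.792 ± 0.480 and 7.68 ± 1.05 CPM (logFC 3.25 ± 0.52, FDR 0.000111), and Ptger3, a receptor of prostaglandin E, at 3.63 ± 0.554 and 32.8 ± 7.09 CPM (logFC 3.17 ± 0.45, FDR 4.06e-05). Chrm3, a muscarinic receptor, had a logFC of 1.81 ± 0.33 (FDR 0.00038). Gja1, connexin 43, which couples muscle cells and also joins stromal cells, was called in INT (0.98 ± 0.30, FDR 0.0122), SVX and SVX_VAS. In VAS it was not called (0.31 ± 0.29, FDR 0.367), nor without VAS replicates 2 and 3 (logFC 0.70, FDR 0.0568). Avpr1a, Adra1d, Chrm2 and P2rx1 did not pass the filter and were at most 1.49 CPM.

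Markers of other cell types differed between CONT and the mated groups as well. Of 10 pericyte and vascular smooth muscle markers, 9 were called higher in INT and 10 in each of the other mated groups. The share of all genes called higher was 20.9% in INT, 23.1% in SVX, 22.1% in SVX_VAS and 23.2% in VAS. Ndufa4l2 of the pericyte list, Tnnt3 of the striated muscle list and Cd3e of the leukocyte list passed the filter only through the mated libraries. Their direction was thus set by the filter. Higd1b of the pericyte list had a CONT mean of 2.89 CPM, under the 3 CPM of the filter, and needed mated libraries to pass it. The summed level of the pericyte and vascular smooth muscle list was 375 to 485 CPM in CONT, 1031 to 1460 CPM in INT, 1306 to 1526 CPM in SVX, 1217 to 1511 CPM in SVX_VAS and 772 to 1491 CPM in VAS. Rgs5, a pericyte gene, was at 141 ± 27.0 CPM (SD, n = 3) in CONT and 613 ± 124 CPM (SD, n = 4) in INT (logFC 2.12 ± 0.38, SE, edgeR FDR 0.000262). All 10 endothelial markers rose in each mated group, from summed levels of 245 to 343 CPM in CONT to 728 CPM or more. Of these, Cldn5 had a CONT mean of 2.94 CPM, under the 3 CPM of the filter, and so needed mated libraries to pass it. Of 10 stromal markers 6 rose in INT, where the sum was 8460 to 11100 CPM against 6360 to 6843 CPM in CONT. In VAS 4 stromal markers rose (23.2% of all genes were called higher), and 7 rose without replicates 2 and 3 (22.0%). Their sums were 2237 and 2425 CPM in VAS replicates 2 and 3 and 10750 and 8701 CPM in replicates 1 and 4. In INT 7 of 10 epithelial markers fell, from sums of 4522 to 6130 CPM to 848 to 2965 CPM, and in VAS 8 fell (17.2% of all genes were called lower), with 5 called without replicates 2 and 3 (14.2%). Of the mesothelial and fat markers 5 were tested and 1 rose (Wt1), Adipoq being at 0.684 CPM at most. Of the 3 nerve markers tested 2 fell, of 4 striated muscle markers 2 were called higher and 1 lower, and of 9 leukocyte markers 8 higher and 1 lower, in INT. The part of these cells in the rises of Synpo2, Des and Mylk and in the fall of Oxtr was not tested.

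**Figure D4:**
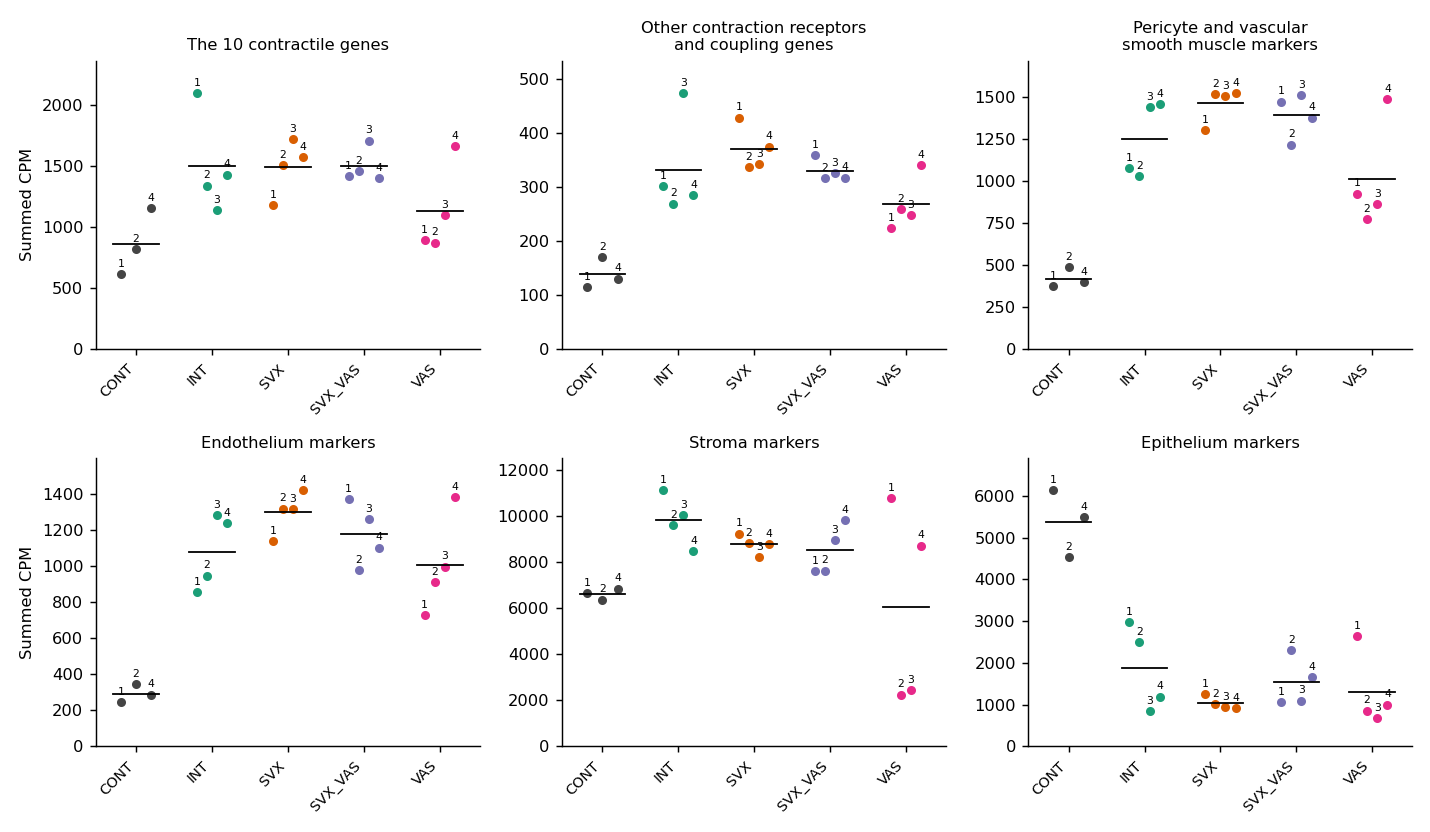
Summed CPM of the 10 contractile genes and of 5 fixed lists, by group; points are libraries with their replicate number, and bars are group means. Pericyte and endothelial sums in mated libraries were all above CONT, epithelial sums were all below, and contractile sums overlapped CONT in INT and VAS. Receptor sums were also above CONT, but Adra1a, Ptgfr and Chrm3 of that list passed the filter only through the mated libraries. The direction of these genes was set by the filter.

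Outside the set, the genes whose log2 CPM most resembled the mean of the 10 members (each standardised) over the 19 libraries were Myl9 (r = 0.976), Tpm2 (0.951), Dmpk, a muscle protein kinase (0.873), Hspb7 (0.822) and Pcp4 (0.811), followed by Acta1, Tpm1, Kcnmb1, Ppp1r12b and Jph2 (0.742 to 0.797). With group means removed the leading genes were again Myl9 (0.985), Tpm2 (0.967) and Dmpk (0.929), and 6 of the 10 were shared. Without SVX replicate 1 and VAS replicates 2 and 3, 5 of 10 were shared. Myl9 was at 35.9, 47.9 and 66.8 CPM in CONT and 117, 69.7, 41.2 and 61.3 CPM in INT. It was at 34.8, 38.6, 48.4 and 72.4 CPM in VAS, so that the libraries high or low for Acta2 were so for Myl9 too. Synpo2, by contrast, was at r = 0.416 with the mean of the other members. The genes most like Synpo2, looked for after its values were seen, were Kctd12, Fam102b, Tmem198b, Pi15, St3gal6, Srpk2, Gm43283, Smoc1, Matn2 and Mmp19 (r = 0.982 to 0.986). With group means removed, the 10 were led by Pkd2 (0.96), Rbms3 (0.949) and Colec12 (0.939). Mcam, a pericyte and vascular smooth muscle marker, was at rank 7 of these (r = 0.936). It was not among the 10 as measured, nor without SVX replicate 1 and VAS replicates 2 and 3.

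For Oxtr a different set of genes came out, looked for after its values were seen. Csmd2 was most like it (r = 0.974), at 8.32, 8.36 and 7.89 CPM in CONT and 11.7, 3.21, 0.627 and 0.350 CPM in INT. In the other mated groups Csmd2 was at 3.27 CPM in SVX replicate 1, 6.47 CPM in SVX_VAS replicate 4 and 8.46 and 8.56 CPM in VAS replicates 1 and 3, and at 0.565 CPM or below in the other 8 libraries of these groups. The 6 mated libraries with high Oxtr were thus also those with high Csmd2. Crtac1 (0.969), Mug1, Ggt5, Gm5703, Cldn2, Phf21b, Lgr6 and Nrk (0.96 to 0.968) were also among the 10 most alike, and Cldn2 encodes a tight junction protein of epithelia. In the 6 mated libraries with high Oxtr, the sum of the epithelial markers was 2965 and 2502 CPM in INT replicates 1 and 2, 1256 CPM in SVX replicate 1, 1658 CPM in SVX_VAS replicate 4 and 2646 and 683 CPM in VAS replicates 1 and 3. In the other 10 it was 848 to 2303 CPM. Ltf, the estrogen-induced lactotransferrin, was at 2157, 643, 273, 194, 714 and 152 CPM in the same 6 libraries. It was at 15.6 to 45.3 CPM in 8 of the other 10, at 222 CPM in VAS replicate 2 and at 2301 CPM in SVX_VAS replicate 2. The part of epithelium in the level of Oxtr was not tested.

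**Figure D5:**
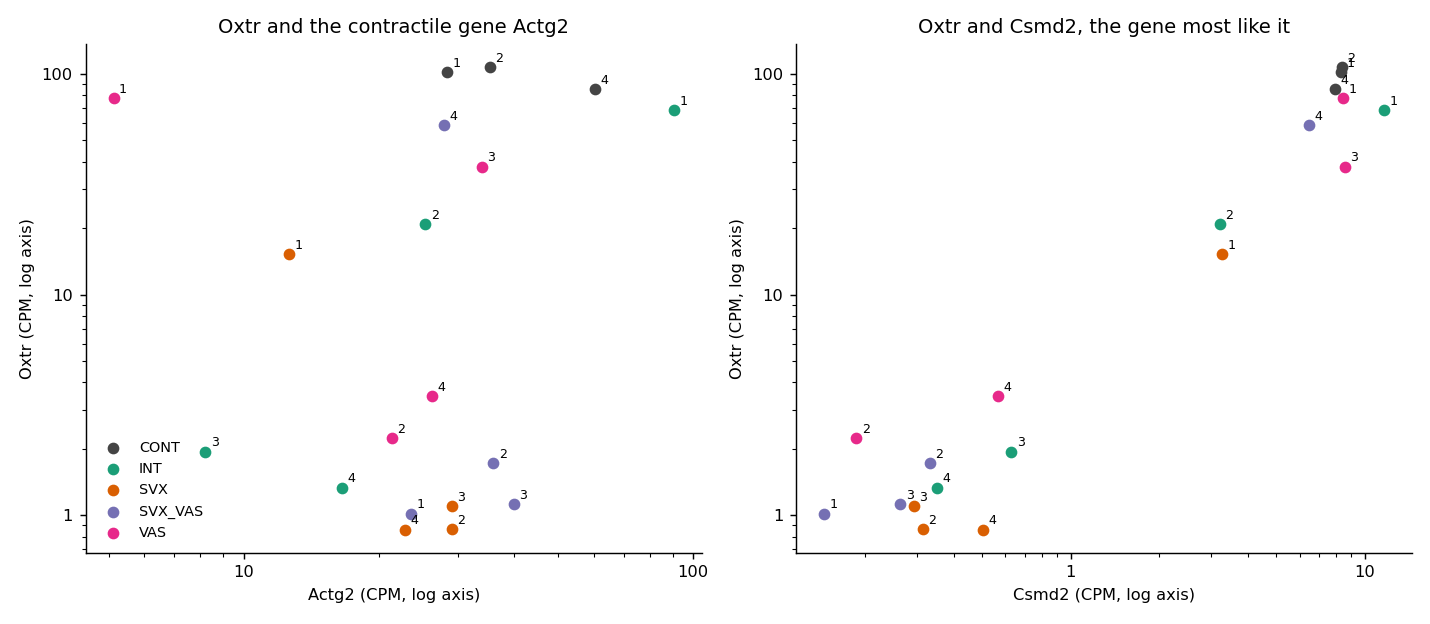
Oxtr against Actg2 (left) and Csmd2 (right), in CPM on log axes, one point per library with its replicate number and the colour of its group. Oxtr showed no common course with Actg2, while high and low Oxtr libraries were also high and low for Csmd2, the most alike of 17222 genes tested.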

How the data were processed

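Endometrial total RNA of 19 pooled samples was prepared with the TruSeq Stranded kit and sequenced in pairs on a HiSeq2000. Per the study's methods and processing notes, the authors trimmed adapters with AdapterRemoval, aligned reads to GRCm38 (mm10) with STAR and made gene counts with featureCounts; they deposited whole-number counts per gene, not normalized. The strand setting and annotation release are not given in the sources used here. Of 49089 gene identifiers, 48349 were matched to a symbol. The 37 mitochondrial genes were at 0 in each library. Totals were 12661266 to 31781270 counts per library; the limit set by a count of 0 covers counting error only, while intervals of a logFC (plus or minus 2 SE) carry the spread between libraries.

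Counts were scaled by TMM and tested with edgeR 4.0.16 (quasi-likelihood, R 4.3.3) in 1 fit of all 19 libraries over the 17222 genes that reached 3 CPM in 3 or more of them. A gene was called at a Benjamini-Hochberg FDR of 0.05 or less, over all genes tested, and a fold change of at least 1.5. The 4 mated groups were each compared with CONT, and 3 of them with INT. Simulated counts with known changes were used to test the script. The SE of a logFC was its size divided by the square root of the F statistic. Alternatives used DESeq2 1.42.0, limma 3.58.1 (voom), other scalings, filters and left-out libraries. Correlations and figures used log2 CPM with a prior count of 2, Python 3.11.15 and matplotlib 3.10.9. The named genes were the 10 members, up to 4 genes of each list with the largest change among those called in INT against CONT, defining markers, and the 10 genes most like the members; others were named for their role after their values were seen. The members and lists were chosen with earlier results of these data known. Protein sequences were not used here.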

Additional observations from a re-analysis of the deposited data

Results flagged for a closer look

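Each member and the summed level were searched, in each group of 4, for a library whose distance to the nearest other library took up most of the range of the group (Dixon's test at its 95% critical value). Of 44 such searches 2.2 would be marked by chance, and 3 were. Acta2 was at 189.5 CPM in VAS replicate 4, where the other 3 VAS libraries were at 62.91 to 79.99 CPM. Of those 3, replicates 2 and 3 stood apart from all other libraries in Actb and in short genes, while replicate 1 did not. The level in replicate 4 lay within the ranges of INT (107.6 to 347.7 CPM), SVX (120.1 to 207.9 CPM) and SVX_VAS (160.5 to 216.0 CPM). Oxtr was at 15.26 CPM in SVX replicate 1, where the other 3 were at 0.8597 to 1.097 CPM, and at 58.55 CPM in SVX_VAS replicate 4, where the other 3 were at 1.014 to 1.719 CPM. The cause was not tested.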

How the results depend on the processing

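Across other scalings, filters, tools and fits, the number of members called stayed within 1.5 times its value in each of the 7 comparisons. Leaving out 1 library at a time gave 3 to 4 members called in INT, SVX and SVX_VAS against CONT, 2 to 4 in VAS against CONT, 0 in SVX and SVX_VAS against INT and 0 to 1 in VAS against INT. The counts of 4 and 1 in VAS came without VAS replicate 4, when Acta2 and Tagln were added against CONT and Acta2 against INT. That run kept VAS replicates 2 and 3, the libraries that stood apart. Without VAS replicates 2 and 3, a choice made after seeing the data, 3 members were called in VAS against CONT. The log2 ratio of the summed level ran from 0.588 to 1.05 in INT, 0.607 to 1.07 in SVX, 0.618 to 1.08 in SVX_VAS and 0.165 to 0.625 in VAS as single libraries were left out. With the mean log2 CPM in place of the sum it was 0.143, -0.0533, 0.146 and -0.173. Upper quartile scaling moved the all-gene median logFC against CONT to 0.116 in INT, 0.165 in SVX, 0.127 in SVX_VAS and 0.126 in VAS. With this scaling Des was called in VAS (logFC 0.64, edgeR FDR 0.0226). Limma-voom moved the median to -0.114 in VAS, where it called 4852 genes lower, against 2967 by edgeR. A replicate block on the numbers in the labels gave 3, 4, 3 and 2 members called against CONT and 0 against INT, as without it, and 5594, 6911, 6399 and 6769 genes called against CONT; same-numbered libraries did not all deviate together, so the numbers were not taken as pairs. Depth limits Oxtr most, with 11 to 49 counts in the 10 lowest mated libraries.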
